A study of Mus musculus with 3 samples.

Results

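*Hmgcs1*, *Idi1*, *Fdps*, *Sqle*, *Lss* and *Cyp51* encode 6 enzymes of cholesterol synthesis, and *Scarb1* encodes a receptor through which cells take up cholesterol from lipoproteins. These 7 genes were taken by name from the 36593 genes listed in any of the count tables, and each of them had counts in every library. They were followed across the somatic cell classes and germ cell stages of the adult mouse testis by single-cell RNA sequencing, in which each transcript is counted near its 3′ end by a unique molecular identifier (UMI). There was 1 library for each of 3 groups, and each library pooled testes from 3 C57BL/6 mice. The first came from mice aged 8 weeks that carried *Ddx4-creER* and *R26tdTomato* and had been given tamoxifen 4 weeks earlier, and Tomato+ cells were sorted away. *Ddx4-creER* marks germ cells, so the sort was meant to enrich for somatic cells, and this library is called Tomato-negative. The second, the control, came from *Scf fl/fl* mice aged 6 weeks. The third, the cKO, came from mice of that age and *Scf* genotype that also carried *Amh-cre*. *Amh-cre* acts in Sertoli cells, and *Scf* (listed as *Kitl*) encodes stem cell factor, the ligand of c-Kit. Haploid spermatids were depleted by flow cytometry before the control and cKO libraries were made. With 1 library per group no difference was tested. The intervals given below are exact 95% intervals that cover counting error only, not the spread between mice, and a ratio compares libraries rather than genotypes.

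Cells make cholesterol from acetyl-CoA through mevalonate, isoprenoid diphosphates, squalene and lanosterol. The genes of the route share control by the transcription factor SREBP2. Leydig cells turn cholesterol into testosterone, and they obtain it from their own synthesis and from circulating lipoproteins. Sertoli cells take up lipid from the germ cells they engulf, and developing germ cells have their own sterol metabolism, in which *Cyp51* is known for high expression in spermatids.

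The tables held 7626 Tomato-negative, 6264 control and 7252 cKO barcodes with 195380762, 90453018 and 68602272 UMIs, and 18076 cells passed the filters. Pairs of libraries shared 9 to 15 cell barcodes and none was in all 3. Classes were named from marker genes, as in "Leydig-like", and every class of at least 30 cells had counts for all of its own markers. Class sizes were uneven. Sertoli-like cells numbered 667, 3 and 24 and Leydig-like cells 31, 2 and 157 in the Tomato-negative, control and cKO libraries, so both classes had almost no control cells to compare with. *Kitl* was at 114 counts per 1000000 UMIs (CPM) in Tomato-negative Sertoli-like cells. It was at 371 CPM (185 to 663) in 3 control Sertoli-like cells and at 36.4 CPM (15.7 to 71.8) in 24 cKO cells. Over all kept cells it was at 17.3, 3.80 and 55.1 CPM in the Tomato-negative, control and cKO libraries, which hold different mixtures of cells. The sources do not state which part of the transcript the floxed allele loses, so these counts check the cKO label only in part. Transcripts of *Prm1*, *Prm2*, *Tnp1* and *Tnp2*, which haploid spermatids make, were present in somatic classes at 273.8 to 1589 CPM in the Tomato-negative library. In the control they were at 305 to 731 CPM in classes of at least 30 cells, and in the cKO at 0.989 to 119 CPM. These transcripts were thus unequal between libraries in cells that do not make them, and their part in the results was not tested.

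The genes lie on GRCm38 at chr13:119690379-119708260 (*Hmgcs1*, plus strand), chr13:8885501-8892451 (*Idi1*, plus), chr3:89093588-89101959 (*Fdps*, minus), chr15:59315077-59331192 (*Sqle*, plus), chr10:76531588-76557138 (*Lss*, plus), chr5:4081145-4104746 (*Cyp51*, minus) and chr5:125277087-125341094 (*Scarb1*, minus). Promoter sequence was read for 4 of the 7 genes from RefSeq (GRCm38.p6), as windows from 250 bases before to 50 bases after the annotated start. The sequences are shown because sterol-regulated promoters carry known short motifs, and because these members differed in how far they followed each other between cell classes. Each is given 5′ to 3′ on the strand of the gene, and only the part before the gene's annotated first base is printed. Capitals mark the sterol regulatory element (TCACNCCAC), the CCAAT box and the GC box (GGGCGG), searched on both strands, so that ATTGG and CCGCCC are reverse-strand matches. The sequences cover chr13:119690101-119690350, chr10:76531355-76531587 and chr5:4104747-4104947.
Hmgcs1: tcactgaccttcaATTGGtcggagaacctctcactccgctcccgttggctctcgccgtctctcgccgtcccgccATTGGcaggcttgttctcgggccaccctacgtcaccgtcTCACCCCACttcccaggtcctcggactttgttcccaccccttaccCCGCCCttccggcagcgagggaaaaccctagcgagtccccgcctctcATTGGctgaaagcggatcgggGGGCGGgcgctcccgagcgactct
Lss: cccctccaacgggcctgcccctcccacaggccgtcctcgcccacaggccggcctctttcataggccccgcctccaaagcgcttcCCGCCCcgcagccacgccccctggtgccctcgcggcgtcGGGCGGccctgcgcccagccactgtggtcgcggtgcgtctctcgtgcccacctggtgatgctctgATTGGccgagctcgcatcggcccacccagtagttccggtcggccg
Cyp51: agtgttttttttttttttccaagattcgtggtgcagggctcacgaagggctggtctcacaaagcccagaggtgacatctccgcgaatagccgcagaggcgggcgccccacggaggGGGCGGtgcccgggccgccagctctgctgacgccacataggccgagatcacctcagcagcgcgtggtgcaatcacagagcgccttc

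*Hmgcs1* was the only one of the 4 windows with the sterol regulatory element, which began 137 bases before the start and is found in 1.24% of 32851 promoters of the same length. The CCAAT box, in 37.4% of promoters, was found 4 times in *Hmgcs1*, at 237, 176 and 45 bases before and 11 bases after the start. It was found once each in *Lss* (62 bases before) and *Cyp51* (29 bases before). The *Idi1* window held it 45 and 14 bases before the start, with a GC box 69 bases before it. GC boxes, in 35.7% of promoters, were also present in the other 3 windows. These matches describe letters only, and a missing match says nothing about binding.

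The highest level of all 6 synthesis genes among the somatic classes was in Leydig-like cells. Their UMIs summed to 1216 CPM (989 to 1479) in 31 Tomato-negative cells and to 2215 CPM (2151 to 2281) in 157 cKO cells. In the same libraries, the sum in Leydig-like cells was 6.66 times (5.06 to 8.76) and 8.27 times (7.87 to 8.69) that of *Pdgfra* stromal-like cells. It was 15.4 times (11.7 to 20.2) and 27.8 times (25.9 to 29.9) that of myoid-like cells, and both groups of intervals lie well above 1. Differentiating spermatogonia-like cells, among the highest germ cell stages, were 2.75-fold and 4.24-fold lower than Leydig-like cells.

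Of the genes of the early pathway, *Hmgcs1*, which makes HMG-CoA, was at 462 CPM (327 to 634) in Tomato-negative and 771 CPM (733 to 810) in cKO Leydig-like cells. No other class of at least 30 cells exceeded 146 CPM in any library. In Sertoli-like cells it was at 109.7 CPM (102 to 118), which overlapped the 110.1 and 116 CPM of Tomato-negative differentiating and undifferentiated spermatogonia. *Hmgcs1* made up 57.7% of the 6-gene sum in Sertoli-like cells, against 38.0% in Tomato-negative and 34.8% in cKO Leydig-like cells. In *Pdgfra* stromal-like cells its level was 71.5, 77.5 and 93.1 CPM in the Tomato-negative, control and cKO libraries, and in myoid-like cells 33.8, 46.1 and 40.4 CPM. *Hmgcs1* thus ran downward from Leydig-like through Sertoli-like and stromal to contractile cells.

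*Idi1*, the isomerase that makes the allylic isoprenoid unit, and *Fdps*, which joins such units to farnesyl diphosphate, had the same leading class. *Idi1* was at 133.8 CPM (66.8 to 239) in Tomato-negative and 252 CPM (231 to 275) in cKO Leydig-like cells. *Fdps* was at 231 CPM (139 to 361) and 286 CPM (263 to 310), and for both genes the intervals in the libraries overlapped. In Sertoli-like and endothelial-like cells both genes lay between 19.2 and 21.3 CPM. Myoid-like cells were lowest among somatic classes, with *Idi1* at 6.37, 9.35 and 4.59 CPM and *Fdps* at 8.28, 8.10 and 6.50 CPM in the Tomato-negative, control and cKO libraries.

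*Sqle*, the epoxidase that commits squalene to sterols, was at 97.3 CPM (42.0 to 192) in Tomato-negative and 209 CPM (190 to 230) in cKO Leydig-like cells. It was at 7.84 CPM (5.89 to 10.2) in Sertoli-like cells and at 2.55 to 4.68 CPM in myoid-like cells of the 3 libraries, the lowest of the somatic classes. *Lss*, which closes lanosterol's rings, was at 36.5 CPM (7.52 to 107, 3 counts) and 55.4 CPM (45.6 to 66.7) in Leydig-like cells of the Tomato-negative and cKO libraries, and 1 count was seen in 90 endothelial-like cells. *Cyp51*, the lanosterol demethylase, was at 255 CPM (158 to 390) and 642 CPM (607 to 677) in Leydig-like cells, and its intervals in the libraries did not overlap. In Sertoli-like cells it was at 23.5 CPM, and vascular smooth muscle-like cells held 48.8, 32.5 and 23.0 CPM of it in the Tomato-negative, control and cKO libraries.

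**Figure D1:**
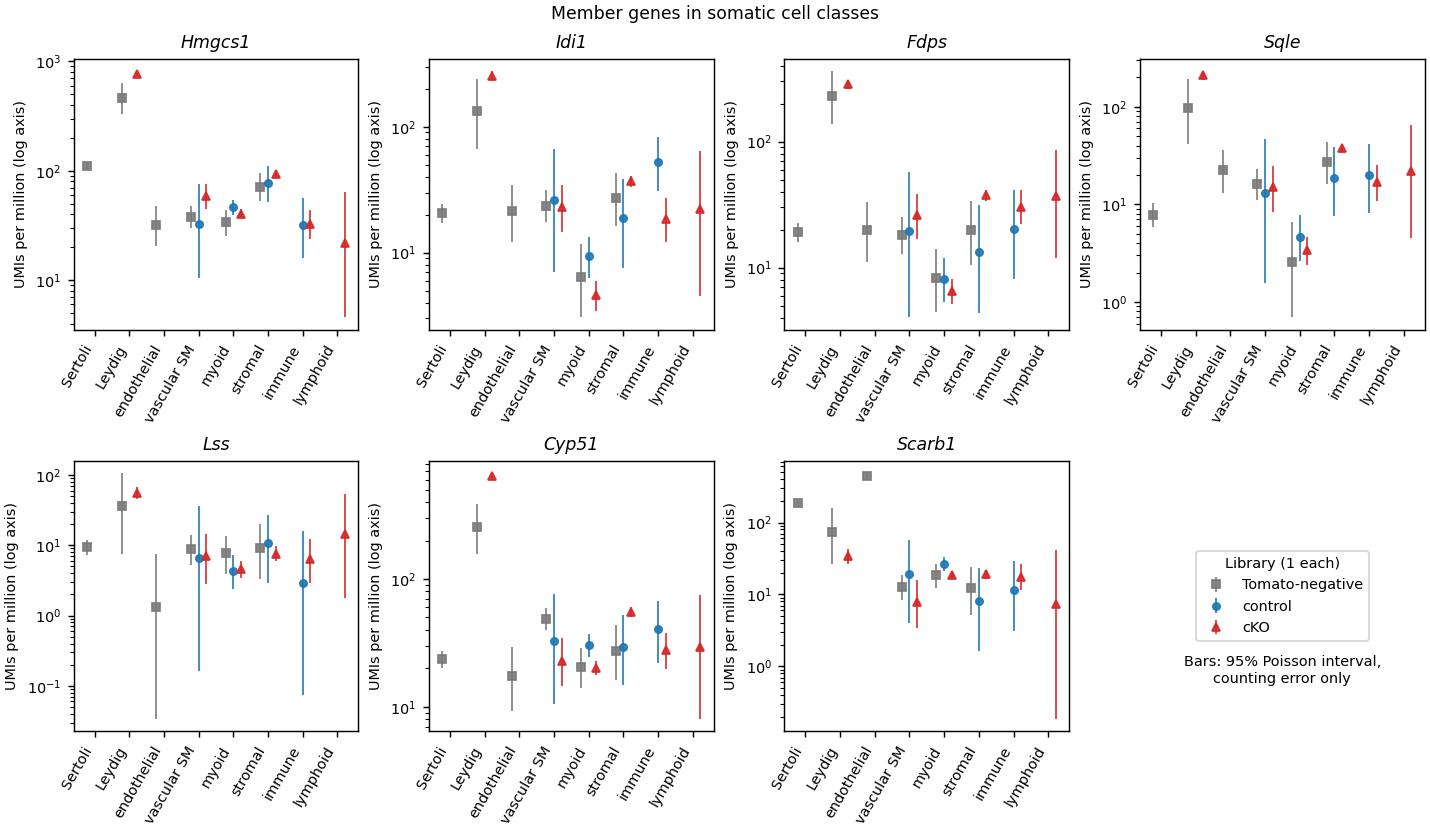
Levels of the 7 genes, as CPM of summed UMIs on a log axis with exact 95% Poisson intervals, in the somatic classes of each library with at least 30 cells. The 6 synthesis genes are highest in Leydig-like cells, where *Hmgcs1* reached 771 CPM in the cKO, while *Scarb1* is highest in endothelial-like cells at 438 CPM.

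The Leydig-like cells of the libraries were unlike in depth and in other genes. Their median was 1464 UMIs in the Tomato-negative and 12787 UMIs in the cKO library. *Insl3*, a hormone of mature Leydig cells, was at 5898 CPM in the Tomato-negative and 99.4 CPM in the cKO Leydig-like cells. *Cyp17a1*, an enzyme of androgen synthesis, was at 8682 and 1830 CPM, and *Cyp11a1*, which cuts the cholesterol side chain, at 2578 and 621 CPM. *Star*, which carries cholesterol into mitochondria, was at 803 and 407 CPM. *Hsd3b6* was at 2444 and 2585 CPM. The synthesis genes were thus higher in the cKO library while *Insl3*, *Cyp17a1*, *Cyp11a1* and *Star* were lower, and age, sort, depth and genotype, which also differed, cannot be told apart.

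Other genes of the route were also measured in Leydig-like cells, and not all of them were highest there. *Msmo1*, a sterol demethylation enzyme, was at 559 and 638 CPM in Tomato-negative and cKO Leydig-like cells. *Insig1*, which holds back SREBP processing, was at 73.0 and 249.8 CPM. *Srebf2*, which encodes SREBP2, was at 60.8 and 87.6 CPM, *Fdft1* (squalene synthase) at 195 and 206 CPM, and *Hsd17b7* (sterol ketone reduction) at 60.8 and 66.8 CPM. In Sertoli-like cells, *Msmo1* was at 47.1 CPM, *Fdft1* at 32.0 CPM and *Insig1* at 13.1 CPM. Some germ cells held more than Leydig-like cells. *Srebf2* was at 129, 109 and 112 CPM in Tomato-negative, control and cKO undifferentiated spermatogonia-like cells. *Fdft1* was at 329 and 259 CPM in Tomato-negative and control pachytene cells. Tomato-negative *Insig1* was at 83.0 and 99.3 CPM in undifferentiated and differentiating spermatogonia-like cells. *Msmo1* and *Hsd17b7* were lower in every germ cell stage.

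The share of cells with at least 1 UMI of any of the 6 genes was also highest in Leydig-like cells among these classes when each cell was thinned to 1000 UMIs. It was 75.0% (67.4 to 81.6) of 156 cKO Leydig-like cells and 54.5% (32.2 to 75.6) of 22 Tomato-negative ones. In classes with little of the genes, the share was 8.75% of 1989 cKO myoid-like cells and 4.33% of 277 cKO immune-like cells, an order opposite to that of their sums (79.6 and 133 CPM). Without thinning, it was 98.7%, 83.9%, 35.9% and 21.2% in these 4 groups. Their medians were 12787, 1464, 5729 and 3214 UMIs per cell, so the unthinned shares mix level and depth.

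*Scarb1*, which encodes the HDL receptor SR-BI, had another order. Among Tomato-negative cells, endothelial-like cells had 438 CPM (392 to 488), Sertoli-like cells 188 CPM (178 to 199) and Leydig-like cells 73.0 CPM (26.8 to 159). The level in endothelial-like cells was 2.33 times (2.06 to 2.63) that in Sertoli-like and 6.00 times (2.73 to 16.5) that in Leydig-like cells. In the small classes of the other libraries, 10 cKO endothelial-like cells gave 704 CPM (508 to 952) and 24 cKO Sertoli-like cells 141 CPM (95.9 to 200). The 157 cKO Leydig-like cells had 34.1 CPM (26.6 to 43.2). All other somatic classes of at least 30 cells lay between 7.34 and 26.5 CPM. After thinning to 1000 UMIs, *Scarb1* was seen in 32.6% of 89 endothelial-like and 12.1% of 646 Sertoli-like cells of the Tomato-negative library. The share in Tomato-negative pachytene and later spermatocytes, where *Scarb1* was lowest, was 0.713%. Unthinned, the shares were 83.3%, 44.4% and 24.2%, at median depths of 6110, 7417 and 72028 UMIs. From the haploid transcripts, free RNA was estimated at 44.8% of UMIs in Sertoli-like and 8.22% in endothelial-like cells of this library. The 50 shallowest barcodes that gave its profile held no *Scarb1*, and with it subtracted *Scarb1* was at 292 and 474 CPM. In Sertoli-like cells the same subtraction left *Hmgcs1* at 170.4, *Lss* at 14.7 and *Fdps* at 7.75 CPM and took *Idi1*, *Sqle* and *Cyp51* to 0. The profile held few UMIs of these genes, so a gene at 0 in it may still be in the free RNA. No interval was given for the subtracted levels, which single UMIs can move. The estimate also counts every haploid transcript in these cells as free RNA.

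Tomato-negative Sertoli-like cells fell into a pair of clusters that differed in *Scarb1* more than in the sum of the synthesis genes. The 239 cells of cluster 14 had a median of 19948 UMIs and the 428 cells of cluster 9 a median of 4996.5. *Scarb1* was at 279 CPM (263 to 296) in cluster 14 and 47.0 CPM (39.2 to 56.0) in cluster 9, a ratio of 5.94 (4.94 to 7.19). The 6-gene sums were 187 and 194 CPM, with a ratio of 0.964 (0.862 to 1.08). Within that sum the members went different ways. *Hmgcs1* was 1.44-fold (1.23 to 1.68) and *Cyp51* 1.53-fold (1.09 to 2.20) higher in cluster 14. *Idi1*, *Fdps* and *Sqle* had ratios of 0.355, 0.357 and 0.184, with every upper bound under 0.52. The haploid transcripts were at 741 CPM in cluster 14 and 2903 CPM in cluster 9, and their part and that of depth in these differences were not tested. The 7 genes were not used in clustering, but the cells shared 1 library, so these values are a description. An unnamed cluster of shallow cells, number 15, also held *Scarb1*, at 282 CPM in the Tomato-negative and 179.8 CPM in the control library. By markers it was nearest to elongating and then to round spermatids, not to Sertoli cells, with *Ddx4* in 42.3% of its cells.

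**Figure D2:**
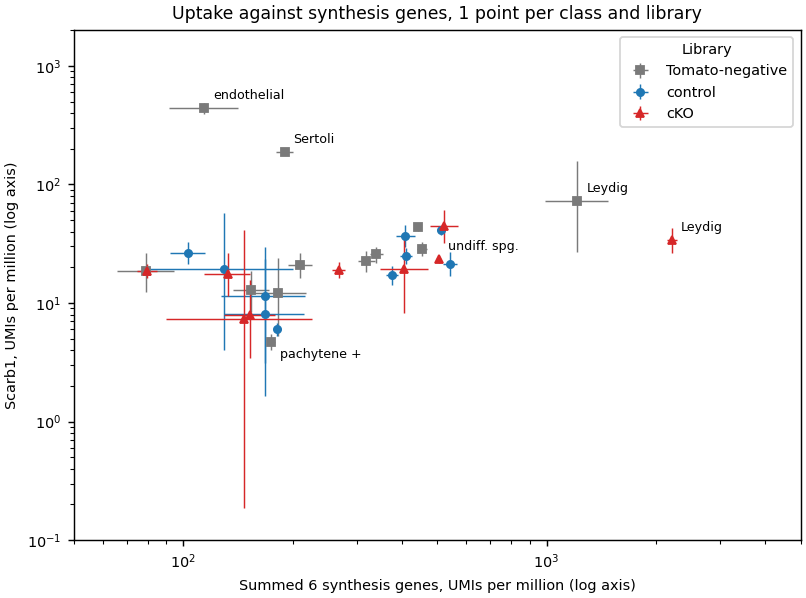
*Scarb1* CPM against the summed CPM of the 6 synthesis genes, both on log axes with exact 95% Poisson intervals, for each class and library with at least 30 cells. Endothelial-like and Sertoli-like cells stand high on *Scarb1* (438 and 188 CPM) at sums of 114 and 190.2 CPM, and Leydig-like cells stand far to the right at 1216 and 2215 CPM.

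In the germ cells, the 6 synthesis genes together were highest in spermatogonia, fell to pachytene and rose again in round spermatids. The sum in undifferentiated spermatogonia-like cells was 454, 543 and 505 CPM in the Tomato-negative, control and cKO libraries, and 442, 512 and 523 CPM in differentiating ones. It was 340.2, 376 and 406 CPM in early prophase spermatocytes. The cKO early prophase sum was 497 CPM with each library clustered alone, beside 513 and 503 CPM in cKO undifferentiated and differentiating cells. In pachytene and later spermatocytes it was 174 and 182 CPM in the Tomato-negative and control libraries, 2.60-fold (2.50 to 2.71) and 2.99-fold (2.84 to 3.14) below undifferentiated spermatogonia. It was 319 and 411 CPM in round spermatids. *Hmgcs1* followed this course, while the other genes departed from it at 1 or more stages.

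*Hmgcs1* was a gene of spermatogonia. It was at 116, 142 and 107 CPM in undifferentiated and 110.1, 131 and 146 CPM in differentiating spermatogonia-like cells of the Tomato-negative, control and cKO libraries. Early prophase spermatocytes had 34.8, 62.5 and 55.3 CPM, and pachytene and later spermatocytes 9.62 and 18.5 CPM in the Tomato-negative and control libraries. The early prophase values were 61.3, 50.8 and 118 CPM when each library was clustered alone. The ratio of undifferentiated spermatogonia to pachytene cells was 12.1 (10.6 to 13.7) and 7.71 (6.86 to 8.65). *Hmgcs1* was then 3.13-fold (2.55 to 3.84) and 2.47-fold (2.16 to 2.83) higher in round spermatids than in pachytene cells.

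*Fdps* fell earlier. It was at 143.5, 134 and 147 CPM in undifferentiated spermatogonia-like cells of the Tomato-negative, control and cKO libraries and at 83.9, 84.6 and 68.0 CPM in differentiating ones. In early prophase spermatocytes it had dropped to 29.7, 21.0 and 28.8 CPM, a level 4.83-fold (4.14 to 5.66), 6.397-fold (5.30 to 7.75) and 5.11-fold (2.92 to 9.90) below undifferentiated spermatogonia. The 3 libraries gave the same order, with intervals that did not overlap from 1 stage to the next. With each library clustered alone, cKO *Fdps* was at 117 CPM in undifferentiated and 153 CPM in differentiating cells, so the cKO order of these stages turned. In cKO early prophase cells *Fdps* was then at 48.5 CPM. *Fdps* was higher again in elongating spermatids, at 56.0 and 55.3 CPM, which was 2.35-fold (1.84 to 3.02) and 2.66-fold (2.09 to 3.38) above round spermatids.

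*Idi1* instead peaked at entry into meiosis. Undifferentiated spermatogonia-like cells had 65.5, 65.7 and 74.2 CPM and early prophase spermatocytes 123, 109 and 113 CPM in the Tomato-negative, control and cKO libraries. The ratios were 1.87 (1.67 to 2.096), 1.65 (1.42 to 1.93) and 1.52 (1.12 to 2.03). The cKO step was smaller when each library was clustered alone, with *Idi1* at 83.8 CPM in undifferentiated and 90.3 CPM in early prophase cells. *Idi1* was still at 78.7 and 70.0 CPM in pachytene cells, where it made up 45.2% and 38.5% of the 6-gene sum. In elongating spermatids it was at 8.87 and 9.34 CPM, 13.8-fold (9.55 to 20.8) and 11.6-fold (7.75 to 18.3) below early prophase.

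*Sqle* varied least until the last stage. It lay between 55.8 and 111 CPM in every germ cell stage before elongating spermatids in the 3 libraries. In round spermatids it was at 84.3 and 111 CPM in the Tomato-negative and control libraries, 3.73-fold (2.90 to 4.85) and 3.22-fold (2.58 to 4.05) above elongating spermatids. *Lss* was flat, at 18.3 to 28.8 CPM, up to early prophase. It then fell 5.57-fold (4.39 to 7.05) and 5.78-fold (4.68 to 7.14) to pachytene cells, and in spermatids its 2 to 9 counts per class gave 0.779 to 1.84 CPM.

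*Cyp51* had the steepest change. Early prophase spermatocytes had 74.3, 71.7 and 84.1 CPM in the Tomato-negative, control and cKO libraries, and pachytene and later spermatocytes only 3.39 (2.82 to 4.05) and 4.74 CPM (4.09 to 5.45) in the Tomato-negative and control libraries. Round spermatids had 128 (118 to 139) and 173 CPM (163 to 183). The step from pachytene cells to round spermatids was 37.8-fold (31.0 to 46.4) and 36.6-fold (31.4 to 42.8), so the libraries gave nearly the same ratio. *Cyp51* made up 40.2% and 42.1% of the 6-gene sum in round spermatids, against 1.95% and 2.61% in pachytene cells. *Msmo1*, *Fdft1* and *Lss*, other genes of the route, did not show this step. *Msmo1*, which acts shortly after *Cyp51*, was at 0.907 and 0.442 CPM in round spermatids of the Tomato-negative and control libraries. *Fdft1*, further ahead of *Cyp51*, was at 262 and 324 CPM in round spermatids and at 329 and 259 CPM in pachytene cells. *Lss*, just before *Cyp51*, went from 4.06 and 4.42 CPM in pachytene cells to 1.81 and 1.33 CPM in round spermatids. *Sqle* was 1.35-fold (1.21 to 1.51) and 1.76-fold (1.62 to 1.90) higher in round spermatids than in pachytene cells.

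In elongating spermatids the libraries parted. *Cyp51* was at 96.1 CPM (85.7 to 107) in the Tomato-negative and 274 CPM (255 to 296) in the control library. Against round spermatids this was 0.749 times (0.650 to 0.861) in the former and 1.58 times (1.44 to 1.74) in the latter. The Tomato-negative level was 0.350 times (0.305 to 0.400) the control level. Of the 6 members with at least 20 counts in these cells, only *Cyp51* was at least 2-fold lower, where 7.51% of 10958 genes were, and none was at least 2-fold higher, where 21.1% were. Markers of Sertoli cells summed to 3896 CPM in the Tomato-negative elongating spermatids, with all 9 markers counted, and to 36.2 CPM in the control ones, with 8 of 9 counted. Their part in the *Cyp51* difference was not tested.

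Among the named germ cell stages, *Scarb1* was highest by value in differentiating spermatogonia-like cells, at 43.5, 41.0 and 45.0 CPM in the Tomato-negative, control and cKO libraries. The unnamed shallow cluster 15, nearest to spermatids by markers, stood above these values in the Tomato-negative and control libraries. Elongating spermatids had 20.8 and 37.0 CPM in the Tomato-negative and control libraries. The control interval (29.9 to 45.2) overlapped that of differentiating cells (37.7 to 44.6). When each library was clustered alone, cKO early prophase cells had 34.9 CPM and cKO differentiating cells 24.3 CPM. In undifferentiated spermatogonia-like cells of the 3 libraries clustered together it was at 28.7, 21.4 and 23.4 CPM. In pachytene and later spermatocytes it was at 4.73 and 6.05 CPM, 9.19-fold (7.77 to 10.9) and 6.78-fold (5.83 to 7.91) below differentiating spermatogonia. Round spermatids had 22.7 and 25.1 CPM, 4.80-fold (3.71 to 6.18) and 4.14-fold (3.39 to 5.06) above pachytene cells. *Scarb1* thus shared the pachytene low point with *Hmgcs1* and *Cyp51*, though not with *Idi1* or *Sqle*. *Fdps* was also lowest there in the Tomato-negative library, at 16.1 CPM. In the control it was at 20.6 CPM, beside 21.0 CPM in early prophase and 20.8 CPM in round spermatids.

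**Figure D3:**
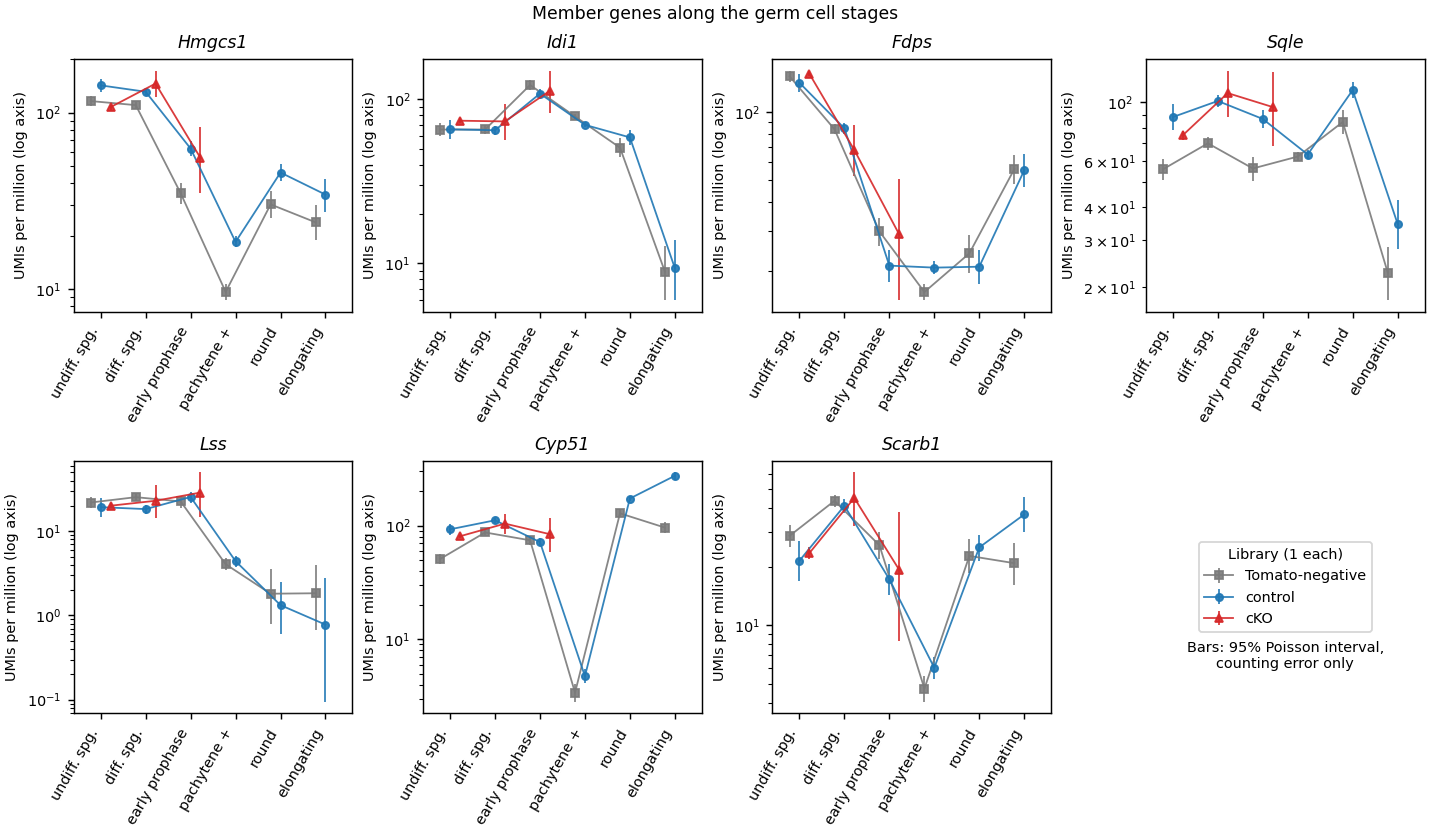
Levels of the 7 genes, as CPM on a log axis with exact 95% Poisson intervals, from undifferentiated spermatogonia-like cells to elongating spermatids in each library with at least 30 cells of a stage. *Cyp51* drops to 3.39 and 4.74 CPM in pachytene cells and stands at 128 and 173 CPM in round spermatids, while *Idi1* is highest in early prophase.

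The Tomato-negative and control libraries otherwise gave like orders with some shifts in level. In spermatogonia, *Sqle* and *Cyp51* were lower in the Tomato-negative library, with ratios of 0.634 (0.546 to 0.737) and 0.549 (0.472 to 0.639) in undifferentiated and 0.691 (0.639 to 0.747) and 0.781 (0.727 to 0.840) in differentiating cells. *Idi1* and *Fdps* had ratios from 0.991 to 1.07 in these stages. *Hmgcs1* was lower in the Tomato-negative library in all 6 germ cell stages, with ratios from 0.521 to 0.840. Most differentiating spermatogonia-like cells belonged to cluster 0 in the Tomato-negative library and to clusters 1 and 7 in the control, and age and sort also differed.

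The next question was whether the library from mice with *Scf* deleted in Sertoli cells held other levels of these genes in other cells. The cKO library was set beside the control in *Pdgfra* stromal-like cells, the stroma between tubules that also expresses *Tcf21*. There were 121 Tomato-negative, 111 control and 1644 cKO cells of this class. The 6-gene sum was 183 CPM (151 to 218), 168 CPM (129 to 215) and 268 CPM (257 to 279) in the 3 libraries. The cKO level was 1.59 times (1.24 to 2.08) the control level, and the Tomato-negative level 1.09 times (0.793 to 1.496). The cKO value therefore stood above both others, and the others overlapped.

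Gene by gene, the control library was thin, with 3 to 29 counts per member. *Fdps* was at 19.8, 13.4 and 37.5 CPM in the Tomato-negative, control and cKO stroma, a cKO to control ratio of 2.81 (1.19 to 8.70). *Cyp51* was at 27.4, 29.4 and 55.3 CPM, with a ratio of 1.88 (1.04 to 3.79). These were the members whose intervals lay above 1. *Sqle* was at 27.4, 18.7 and 37.5 CPM (ratio 2.004, 0.962 to 5.02) and *Idi1* at 27.4, 18.7 and 36.8 CPM (1.97, 0.945 to 4.94). *Hmgcs1* had a ratio of 1.20 (0.831 to 1.81). *Scarb1* was at 12.2, 8.01 and 19.0 CPM, with 8, 3 and 175 counts and a ratio of 2.37 (0.798 to 11.6). *Lss* was at 9.13, 10.7 and 7.60 CPM (ratio 0.712, 0.266 to 2.68), so its direction was not detectable at this depth.

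By size alone, 3 of 7 members (*Fdps*, *Sqle* and *Scarb1*) were at least 2-fold higher in cKO stroma, where 6.47% of 12867 genes with at least 20 counts were, and none was at least 2-fold lower, where 7.80% of genes were. Among 10724 genes with at least 50 counts, which all 7 members had, 832 were higher and 539 lower. The number higher was the same 832 with at least 20 counts. The median log2 ratio of the 7 members was 0.98 and that of the 6 synthesis genes 0.94, beside 0.00 over all genes. The sum was higher in the cKO within both clusters that held most of the class, at 284 against 187 CPM in cluster 17 (ratio 1.52, 1.08 to 2.20) and 265 against 153 CPM in cluster 22 (1.74, 1.14 to 2.79). These clusters held the larger part of the class in each library.

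The wider route was described with lists of 56 genes, 45 of which had at least 20 counts in stromal-like cells. Of these, 11 were at least 2-fold higher in the cKO and 1 lower, with a median log2 ratio of 0.21. Over all 12867 genes, 6.47% were higher and 7.80% lower. With at least 50 counts, 11 of 44 list genes were higher and 1 lower, where 832 of 10724 genes were higher and 539 lower. With the limit of 3500 genes, 4 list genes were higher and 2 lower, where 772 of 11939 genes were higher and 1017 lower. With cells classed 1 by 1, 6 list genes were higher and none lower, where 832 of 12332 genes were higher and 918 lower. Without called doublets 6 were higher and 1 lower, where 753 of 11976 genes were higher and 960 lower. Among 9 genes acting after squalene, 5 were at least 2-fold higher and none lower (median log2 ratio 1.25), and among 8 genes of the mevalonate and isoprenoid steps 2 were higher and none lower (0.45). Of 10 regulators 2 were higher (median -0.16), and of 12 genes of uptake, transport and storage 2 were higher and 1 lower (0.14). Neither of 2 efflux genes and none of 4 genes of steroid synthesis passed the fold.

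*Msmo1* was at 25.9, 18.7 and 50.4 CPM in Tomato-negative, control and cKO stroma, a cKO to control ratio of 2.70 (1.30 to 6.74). *Insig1* was at 32.0, 13.4 and 49.0 CPM, a ratio of 3.67 (1.56 to 11.4). *Srebf2* was at 33.5, 16.03 and 36.6 CPM, a ratio of 2.28 (1.04 to 6.27). These 3 had intervals above 1, but the Tomato-negative level of *Srebf2* was closer to the cKO than to the control level. So was that of *Fdft1*, at 22.8, 10.7 and 22.4 CPM. *Mvk* (mevalonate kinase), *Fdft1*, *Nsdhl*, *Hsd17b7*, *Sc5d* and *Stard4*, a carrier of sterol between membranes, had ratios of 2.11, 2.09, 2.99, 5.25, 2.39 and 3.13. Each of these 6 rested on 1 to 4 control counts and its interval reached below 1.

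**Figure D4:**
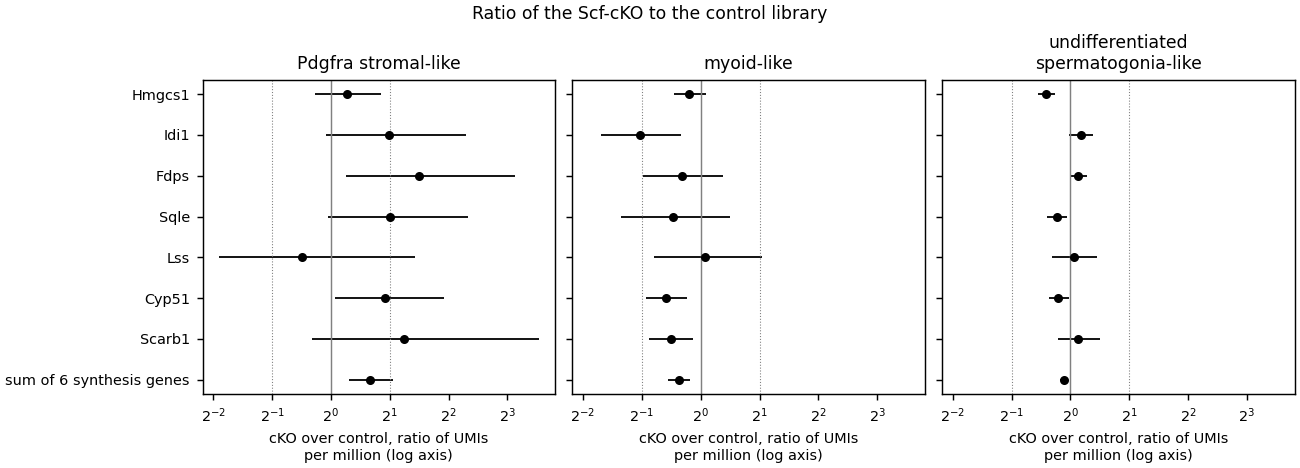
Ratio of cKO to control CPM on a log axis, with exact 95% intervals from counting alone, for the 7 genes and the 6-gene sum. Only *Pdgfra* stromal-like, myoid-like and undifferentiated spermatogonia-like cells are drawn, and the other classes compared are given in the text. The sum lies above 1 in *Pdgfra* stromal-like cells (1.59) and below 1 in myoid-like cells (0.774), and the intervals of most single genes cross 1.

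Several other measures also differed between the libraries in stromal-like cells, not all in the order of the 6-gene sum. Markers of Leydig cells summed to 30.4, 26.7 and 58.9 CPM in the Tomato-negative, control and cKO stroma, with 3, 3 and 7 of 7 markers counted. *Cyp11a1*, *Hsd3b1* and *Hsd3b6* were at 0 in the first pair of libraries. Without *Star* and *Lhcgr*, the other 5 summed to 4.57, 2.67 and 10.9 CPM, against 19979 and 5671 CPM in Tomato-negative and cKO Leydig-like cells. Sertoli markers summed to 549, 270 and 582 CPM and myoid markers to 969, 1100 and 1511 CPM, while the stromal markers themselves summed to 16493, 13536 and 11072 CPM. Markers of elongating spermatids were at 414, 438 and 5.54 CPM, and the median cell had 4835, 3250 and 5315 UMIs. The 50 shallowest barcodes of each table held 271 to 293 CPM of the 6 genes, beside 168 to 268 CPM in the stroma. Those barcodes held few UMIs of the 6 genes and have no interval here, so the nearness of the values cannot be read. The part of these measures in the stromal ratio was not tested.

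In myoid-like cells the cKO lay lower. The 6-gene sum was 79.0 CPM (65.7 to 94.2), 103 CPM (92.1 to 115) and 79.6 CPM (74.6 to 84.9) in 192 Tomato-negative, 604 control and 1989 cKO cells. The ratio of cKO to control was 0.774 (0.682 to 0.880), and that of Tomato-negative to control 0.768 (0.619 to 0.947). The control thus stood above both others. *Idi1* had a ratio of 0.491 (0.308 to 0.796), *Cyp51* of 0.668 (0.525 to 0.855) and *Scarb1* of 0.703 (0.544 to 0.915) between cKO and control, and the last became 1.22 when each cell was thinned to 1000 UMIs. Of the 7 members only *Idi1* was at least 2-fold lower, where 7.44% of 13607 genes were, and none was at least 2-fold higher, where 5.36% were. Control myoid-like cells lay mostly in cluster 5 and cKO ones in cluster 30, so no ratio within a cluster was available.

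In germ cells the cKO and control libraries were close in the 6-gene sum when the libraries were clustered together. The 6-gene ratio of cKO to control was 0.930 (0.886 to 0.976) in undifferentiated spermatogonia-like cells, 1.02 (0.930 to 1.12) in differentiating ones and 1.08 (0.919 to 1.26) in early prophase spermatocytes. None of the 7 members was 2-fold higher or lower in undifferentiated spermatogonia, where 4.81% and 5.46% of 17538 genes were. *Hmgcs1* had a ratio of 0.753 (0.685 to 0.830) there, which became 1.15 when each library was clustered alone, and *Fdps* of 1.10 (0.996 to 1.21). Most of these cells were in cluster 2 in the control and in clusters 29 and 27 in the cKO. Within cluster 29 the 6-gene ratio was 0.889 (0.813 to 0.973), and within cluster 27 it was 1.18 (0.998 to 1.39). Only 96 differentiating spermatogonia-like and 71 early prophase cells were in the cKO, beside 1807 and 1498 in the control. The border between the stages of spermatogonia was not firm in the cKO. Cluster 29, with 1770 cKO cells, had a marker score of 1.001 for undifferentiated and 0.9305 for differentiating cells, and with each library clustered alone 446 cKO cells were named undifferentiated and 1724 differentiating. *Hmgcs1* was then at 149 and 98.7 CPM in the cKO, against 107 and 146 CPM with the libraries clustered together, and *Scarb1* at 19.5 and 24.3 CPM, against 23.4 and 45.0 CPM. The 6-gene sums of these cells moved less, to 513 and 503 CPM from 505 and 523 CPM. In early prophase cells the cKO sum moved from 406 to 497 CPM, beside 376 and 386 CPM in the control.

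The 6-gene ratio in vascular smooth muscle-like cells was 1.18 (0.736 to 1.98), with 20 control counts, and none of the 4 members with at least 20 counts was past 2-fold, where 11.5% of 7368 genes were higher and 4.97% lower. In immune-like cells the ratio was 0.792 (0.587 to 1.08), and 0.342 with the limit of 3500 genes. *Idi1* was at 52.0 CPM in 146 control and 18.4 CPM in 288 cKO immune-like cells, a ratio of 0.355 (0.187 to 0.687). It was the only 1 of 6 members tested at least 2-fold lower, where 8.66% of 8588 genes were, and none was at least 2-fold higher, where 12.5% were.

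Across 28 sums of a class in a library with at least 50 cells, the synthesis genes followed each other unevenly and *Scarb1* followed none of them. Pearson's r of log2(CPM + 10) was 0.88 for *Idi1* with *Sqle*, 0.77 for *Hmgcs1* with *Lss* and 0.72 for *Hmgcs1* with *Fdps*. The lowest among the 6 was 0.40, for *Idi1* with *Cyp51*. *Scarb1* had r from -0.08 to 0.23 with the 6. Sums from the same library share depth and background, so these values are descriptions. Among 18663 genes, those most like the mean of the 6 included *Gm42583* (0.85), *Nckap5* (0.81), *Srd5a1* (0.81) and *Gm3571* (0.80). *Srd5a1* encodes a steroid reductase. The 20 most alike held 6 genes of the pathway lists, among them *Hsd17b7*, *Insig1*, *Sc5d* and *Stard4*. The genes most like *Scarb1* were *Ppp1r16b* (0.92), *Sema7a* (0.90) and *Edn1* (0.86), of which *Edn1* encodes endothelin, made by endothelial cells. UMIs were counted at 3′ ends and not per length, so a gene's percent of the 6-gene sum is a share of UMIs and ranks no gene's expression above another's.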

How the data were processed

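Raw UMI counts per gene and cell were the unit deposited by the authors. Per the labels, libraries were made with Chromium 3′ v2 chemistry, and the submitters' processing notes name Cell Ranger 2.1.1, Seurat 3.1 and GRCm38. The merged table held 14039 barcodes, of which those with the first ending were the Tomato-negative library. The 6264 control and 149 cKO barcodes it repeats were taken from their own tables. Depth was 195380762, 90453018 and 68602272 UMIs, and precision was given as exact 95% intervals for counting error alone.

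Cells with more than 200 and fewer than 7500 genes and under 10% mitochondrial UMIs were kept (5085 Tomato-negative, 5975 control and 7016 cKO). The study's methods used a limit of 3500 genes, which was run as an alternative. Cells were clustered together with Python 3.11.15, scanpy 1.11.5 and leidenalg 0.10.2 (2000 variable genes without the 7 members or the pathway lists, 30 components, resolution 1). Clusters were named from at least 3 detected markers of a listed cell type, and 4 clusters (265, 171 and 323 cells) stayed unnamed. Doublets called by Scrublet in scanpy (4.31%, 3.42% and 4.62%) were left in the main values.

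Counts were summed by class and library, scaled to CPM, and compared as plain ratios with exact Poisson and conditional binomial intervals (NumPy 2.4.6, SciPy 1.17.1), and figures were drawn with matplotlib 3.10.9. Genes needed 20 counts over both libraries to be counted past 2-fold, and a gene at 0 took a floor of 3 counts. Shares were given with Clopper-Pearson intervals. The ratio step was tested on simulated data. Text names every member in classes of at least 30 cells, 10 neighbouring pathway genes, list genes with at least 100 counts past 2-fold in stroma, and the 5 and 3 genes most like the synthesis genes and *Scarb1*. Genes and lists were chosen with earlier results of these data known. Some pathway genes that this rule names are counted in their lists but not reported here by name. Smaller classes, markers, and *Insl3*, *Cyp17a1* and *Hsd3b6* were named after values were seen. Alternatives varied the gene limit, clustering, doublets, denominator, scaling, thinning and low-count filter.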

Additional observations from a re-analysis of the deposited data

Results flagged for a closer look

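The summed level of *Hmgcs1*, *Idi1*, *Fdps*, *Sqle*, *Lss* and *Cyp51* was flagged because its ratio of cKO to control went in opposite directions in different cell classes. It was 1.591 in *Pdgfra* stromal-like cells, 0.774 in myoid-like cells and 0.9297 in undifferentiated spermatogonia-like cells. The difference between these ratios was not tested, since there was 1 library per genotype.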

How the results depend on the processing

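The ratio of cKO to control for the 6 synthesis genes in *Pdgfra* stromal-like cells kept its direction under all 7 alternatives run, from 1.37 (cells thinned to 1000 UMIs) to 1.63, and that in myoid-like cells under all 7, from 0.741 to 0.818. In cKO Leydig-like cells, the sum of 2215 CPM moved to 2298 under the limit of 3500 genes, to 2128 when classes were set per cell and to 2385 without called doublets. The number of pathway genes past 2-fold in stroma, in either direction, was 12 of 45, and 6 with the limit of 3500 genes, 6 with classes per cell and 7 without doublets. Over all genes, 832 were higher and 1004 lower of 12867 in the main setting. In the other settings, in that order, these were 772 and 1017 of 11939, 832 and 918 of 12332, and 753 and 960 of 11976. The share of cKO Leydig-like cells with a UMI of the 6 genes was 75.0% at 1000 UMIs, 93.5% at 2000 and 98.7% unthinned. Of the 8 genes of most like pattern (5 for the synthesis genes and 3 for *Scarb1*), 4 were kept with log2(CPM + 1), and in 13 somatic sums alone the 3 for *Scarb1* were kept and none of the 5. Ratios that turned were *Scarb1* in myoid-like cells (1.22 thinned), *Hmgcs1* in undifferentiated spermatogonia-like cells (1.15 with each library clustered alone) and *Cyp51* there (1.02 thinned); the cause was not tested. Many cKO spermatogonia-like cells changed class when each library was clustered alone. The 6-gene ratio in immune-like cells, 0.792, was 0.342, 0.4997 and 0.422 with the 3500 limit, without doublets and thinned. The limit of 3500 genes moved 93 of 196 member levels and subtracting free RNA 18 of 112. The subtraction was not run for the cKO, whose 50 shallowest barcodes held 0 CPM of the haploid transcripts. Thinning, scaling and denominator in classes other than stroma were chosen after seeing the data. Control stroma (111 cells) and the few control Leydig-like and Sertoli-like cells limit what can be compared. No paired analysis was possible because each group has 1 library.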
